A study of Mus musculus with 6 samples.

Results

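The cells described here are the cells of 6 single-cell libraries of mouse Achilles tendon in which a transcript of Gli1 was captured. Members were barcodes with at least 2000 unique molecular identifiers (UMIs, each standing for 1 captured RNA molecule), at least 200 genes, at most 5% mitochondrial UMIs and at least 1 Gli1 UMI, which gave 1987 of the 58863 barcodes past the same filters and of the 84194 deposited. All mice carried Gli1-CreERT2, a tamoxifen-inducible Cre expressed from the Gli1 locus, with Ai9, a Cre-dependent tdTomato reporter, and all received tamoxifen. Cells from uninjured tendon and from tendon 7 and 21 days post injury (dpi) by tenotomy were sorted into Gli1+ and Gli1- cells, and each sort of each time point is 1 library. The 24 mice, of equal sex distribution, were 8 per time point, the labels give 1 library per sort for all of them, and their ages were not given in the sources used here. The sort and the Gli1 transcript measure different things, since the reporter marks cells that used Gli1-CreERT2 at the time of tamoxifen and their progeny, whereas the transcript shows Gli1 use at the time of capture. Gli1+ and Gli1- therefore name the sorts below, and the cells with a captured transcript are called Gli1-expressing cells.

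Gli1 is a zinc finger transcription factor of the Hedgehog pathway. Hedgehog ligands (Shh, Ihh, Dhh) bind the receptor Ptch1, which releases Smo from inhibition, and Smo then lets Gli2 and Gli3 act as activators of transcription. Gli1, Ptch1 and Hhip are transcribed in response, so that their transcripts are the usual readout of the pathway, and Ptch1 and Hhip bind ligand and dampen the signal. In tendon, Gli1 is known for marking progenitors of the fibrocartilage at the insertion into bone, and in skin it marks cells of the hair follicle and its dermal sheath.

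The kept cells numbered 7352 to 11062 per library and held 60303898 to 121789057 UMIs in all. The median was 5131 to 10970 UMIs per cell. The libraries did not hold the same cells: 54.5% of the Gli1+ uninjured cells were immune by their markers, against 0% to 0.281% elsewhere. Of the Gli1+ 7 dpi cells whose summed marker UMIs were highest for the mesenchymal list, 99.2% held UMIs of Krt14, with a median of 6. Krt14 is a keratin of basal epidermis. In that library, 22.9% of all cells tied between lineages, and 94.4% were marked as likely doublets (17.4% to 41.2% in the other libraries). Free or mixed RNA of epidermal cells cannot be told apart from their own transcripts there. Of the Gli1-expressing cells, 32.6% (Gli1+) and 51.5% (Gli1-) were marked as likely doublets in uninjured tendon. The shares were 98.4% and 41.5% at 7 dpi, and 39.5% and 36.7% at 21 dpi. Between 27 and 75 barcodes were shared by each of the 15 pairs of libraries, and 0 to 4 of them belonged to Gli1-expressing cells in either library of a pair.

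The transcript was rare in every library. Gli1-expressing cells were 347 of the Gli1+ and 402 of the Gli1- uninjured cells, 186 and 270 of the 7 dpi cells, and 387 and 395 of the 21 dpi cells. As shares, these were 4.72% and 3.89% in uninjured tendon, 1.93% and 2.66% at 7 dpi, and 3.74% and 3.57% at 21 dpi. Neither sort was thus the higher at all 3 time points, and the lowest share of each sort was at 7 dpi. With each cell thinned to 2000 UMIs, the shares became 1.22% and 1.32%, 0.498% and 0.730%, and 1.20% and 0.967%. The level over all kept cells, in counts per 1000000 UMIs (CPM), was 6.65 and 7.79 in uninjured tendon, 2.03 and 2.50 at 7 dpi, and 4.06 and 4.09 at 21 dpi. With 1 library per condition, no test was made between time points or sorts.

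Most members rested on a single Gli1 UMI. Between 10.2% and 14.99% of the Gli1-expressing cells held 2 or more in 5 libraries, but 28.5% did so in the Gli1+ uninjured library, where the highest count in a cell was 5. Just inside the depth limit, 5 to 22 members per library held 2000 to 3000 UMIs, and just outside it, 2 to 15 barcodes with a Gli1 UMI held 1000 to 2000 UMIs. Median depth of the members was 7105 to 10870 UMIs, so each was set beside 5 cells of its own library without a Gli1 UMI and with the nearest totals (9935 matched cells). A matched cell may still have expressed Gli1 below detection.

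Lineages were assigned from 7 fixed lists of 6 marker genes, by the list with most genes detected and at least 2 of them. Of the 1987 Gli1-expressing cells, 1560 were mesenchymal, 141 epidermal, 51 mural, 49 endothelial, 33 immune, 16 Schwann and 9 skeletal muscle, and the rest tied or matched no list. Pooled over the libraries, the transcript was found in 4.14% of mesenchymal, 3.29% of epidermal, 2.335% of mural and 3.095% of Schwann cells and in 9 of 161 skeletal muscle cells (5.59%, 95% exact interval 2.59% to 10.35%), against 0.865% of endothelial and 0.813% of immune cells. Thinned to 2000 UMIs, mesenchymal cells held it in 1.20%, epidermal in 0.817%, mural in 0.870%, Schwann cells in 0.774% and 3 skeletal muscle cells (1.86%, 0.386% to 5.35%), against 0.388% of endothelial and 0.0986% of immune cells. Within libraries the order of epidermal and mesenchymal cells was not that of the pooled shares, since 3068 of the 4284 epidermal cells came from the Gli1+ 7 dpi library, where both shares were low (1.53% of epidermal and 2.20% of mesenchymal cells). In the other 4 libraries with epidermal cells, their share was the higher, at 16.7% against 10.2%, 6.82% against 2.92%, 5.36% against 3.75% and 13.6% against 4.22%, and after thinning it was the higher in 3 of these 4. The share of immune cells was taken as a reference. Whether it came from their own transcripts, free RNA, doublets or wrong lineage calls was not tested. The median depth was 7969 UMIs in immune, 9078 in mesenchymal and 4169 in endothelial cells. Of the 4059 immune cells, 4009 came from the Gli1+ uninjured library, so the reference is that of a single library. It is not a floor, since 1 of 354 endothelial cells of that library (0.2825%) held the transcript against 0.798% of immune cells. Among mesenchymal cells the share was highest in that library, with 245 of 2394 (10.2%, and 3.05% after thinning). Its 174 epidermal cells held the transcript in 16.7%, but only 1 did so after thinning (0.575%), since their median depth was 22600 UMIs.

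Against matched cells, the mesenchymal share of Gli1-expressing cells was higher in 5 of 6 libraries. It was 70.6% against 31.5% in the Gli1+ uninjured library, 76.4% against 66.6% in the Gli1- uninjured library, 50.0% against 45.05% and 94.4% against 86.3% at 7 dpi, and 81.1% against 81.5% and 87.6% against 75.8% at 21 dpi. The mean difference was 12.2 percentage points ± 13.8 (SD, n = 6; two-sided exact permutation test, p = 0.0625, adjusted over 7 lineages 0.219). Endothelial cells were fewer among the members in 6 of 6 libraries, with a mean of 2.12% against 7.49% (difference -5.37 percentage points ± 4.33, exact permutation p = 0.03125, adjusted 0.219). That p is the smallest that 6 libraries allow, and a lineage that reached it alone could not pass the adjustment. The immune difference of -7.61 percentage points rested on the Gli1+ uninjured library, with 9.22% against 54.5%, and was -0.0848 without it.

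**Figure D1:**
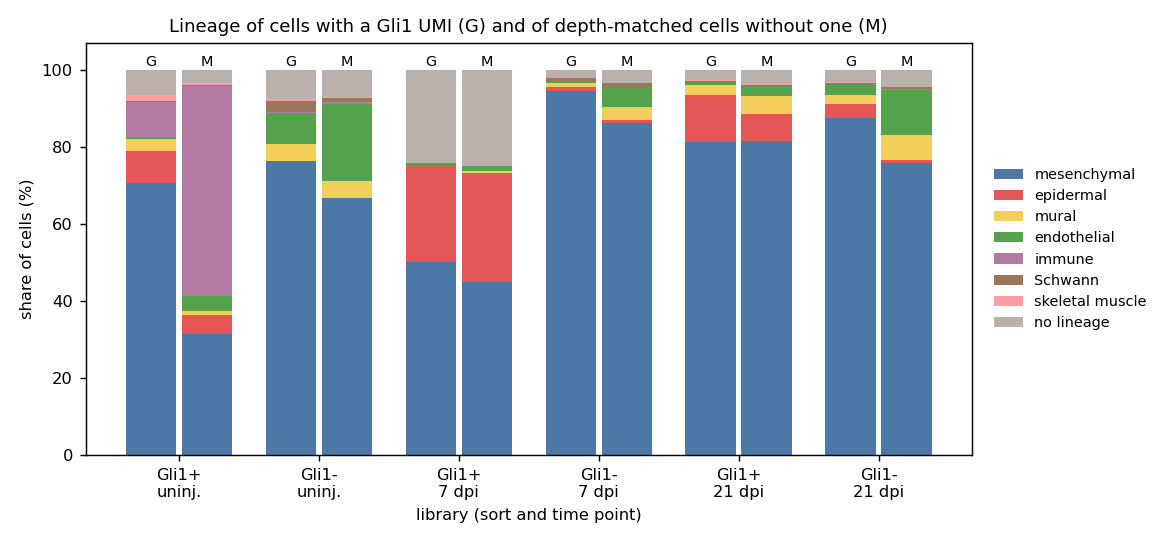
Share of cells (y axis, %) in each lineage for cells with a Gli1 UMI (G) and for depth-matched cells without one (M), in each of the 6 libraries (x axis). Blue mesenchymal bars make up 50.0% to 94.4% of the G columns, the purple immune share is large only in the M column of the Gli1+ uninjured library (54.5%), and the green endothelial share is smaller in G than in M everywhere.

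Single genes showed which mesenchymal cells these were. A Sox9 UMI, from a transcription factor of chondrocytes and of tendon progenitors at the insertion, was found in 38.9%, 31.6%, 40.9%, 47.0%, 37.5% and 38.0% of Gli1-expressing cells (Gli1+ then Gli1- library, from uninjured to 21 dpi) and in 10.1%, 12.3%, 38.0%, 38.4%, 32.8% and 30.6% of matched cells. The share was higher in 6 of 6 libraries, with the widest gaps in uninjured tendon. The mean difference was 11.95 percentage points ± 10.05 (SD, n = 6; exact permutation p = 0.03125, adjusted over 5 genes 0.0781). Among mesenchymal cells the same held, at a mean of 39.75% against 30.1% (6 of 6 libraries, exact permutation p = 0.03125, adjusted 0.0781). Scx, a transcription factor of the tendon lineage, went the other way among mesenchymal cells, at 11.75% against 20.8% (lower in 6 of 6 libraries, exact permutation p = 0.03125, adjusted 0.0781). Shares with a Pdgfra, Krt14 or Rgs5 UMI differed by 10.2, 1.89 and -3.10 percentage points over all cells (exact permutation p = 0.0625, 0.0625 and 0.09375). The Pdgfra difference was 3.795 without the Gli1+ uninjured library, which had 68.9% against 26.9%. Within mesenchymal cells the Pdgfra, Krt14 and Rgs5 shares differed by 0.763, 0.358 and -1.09 (exact permutation p = 1.0, 0.75 and 0.1875), with Pdgfra lower in 5 of 6 libraries, Krt14 in 4 and Rgs5 in 4. These genes belong to the lists that assigned the lineages, so both groups were filtered on them. Their differences within mesenchymal cells are therefore held small in part by that definition.

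Gene by gene, UMIs were summed over the Gli1-expressing and over the matched cells of each library, and edgeR's quasi-likelihood test compared the sums with the library as a block. Among mesenchymal cells, 280 of 12411 genes were higher in Gli1-expressing cells (2.26%) and 191 were lower (1.54%) at a Benjamini-Hochberg adjusted p below 0.05, with Gli1 itself left out. Of these, 227 were higher (1.83%) and 142 lower (1.14%) in each of the 6 libraries, which without a test held for 5.56% and 3.29% of genes. The counts fell to 160 and 84 without the Gli1+ 21 dpi library and to 181 and 108 without the Gli1- 21 dpi library. The 2 sorts of a time point came from the same mice, and with their sums added up to 3 pairs, 77 genes were higher and 34 lower.

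Ptch1 and Hhip, both targets of the pathway, were higher in mesenchymal Gli1-expressing cells of every library. Ptch1, receptor and target, read 124, 67.3, 73.6, 73.3, 135 and 140 CPM in Gli1-expressing cells and 37.0, 23.5, 27.0, 21.6, 17.95 and 22.5 CPM in matched cells, in the library order above. The fitted log2 fold change was 2.03 (SE 0.18, edgeR adjusted p = 0.000209). Hhip, a decoy receptor, read 52.2, 33.4, 8.18, 18.5, 46.3 and 18.4 CPM against 4.93, 7.83, 1.29, 3.63, 2.88 and 2.34 CPM (log2 2.92, SE 0.23, adjusted p = 0.000113). With the sorts added up to 3 pairs the adjusted p was 0.0243 for Ptch1 and 0.00819 for Hhip.

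The remaining parts of the pathway moved little. Among reception genes besides Ptch1, the co-receptor Gas1 was lower (log2 -0.35, SE 0.08, adjusted p = 0.0303), and Smo, Boc and Cdon did not pass (log2 0.14, 0.05 and -0.18). Gli2 was higher, at 71.3, 46.3, 61.8, 58.3, 59.7 and 74.4 CPM against 56.0, 39.3, 24.1, 23.4, 25.1 and 25.1 CPM (log2 0.98, SE 0.17, adjusted p = 0.00798), a call lost with 3 pairs (adjusted p = 0.121), with at least 2 Gli1 UMIs (0.0635) and with mesenchymal cells defined by Pdgfra (0.0702). Gli3 did not pass, at log2 -0.05 (SE 0.07). None of 11 transduction genes tested passed in either direction, against 3.80% of all genes tested, among them Sufu, the inhibitor that holds Gli proteins in the cytoplasm (log2 -0.10), and Kif7 (0.33). The ligands Shh, Ihh and Dhh had too few UMIs to be tested. Of 4 genes of ligand release, Scube1, a secreted carrier of Hedgehog, was higher (log2 2.14, SE 0.21, adjusted p = 0.000336), in 5 of 6 libraries, and Disp1, the exporter of Hedgehog ligand, was lower by 0.34 (adjusted p = 0.0491). The calls of Gas1 and Disp1 were lost under 8 and 19 of 22 other settings, which include leaving out any of 5 and of 6 libraries.

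Of 12 listed mesenchymal Hedgehog targets, 7 were tested and 3 passed, each of them higher, against 2.26% of all genes tested. Foxd1, a forkhead factor of stromal cells, read 41.6, 6.45, 9.99, 7.83, 14.7 and 4.15 CPM against 12.7, 3.95, 2.21, 0.815, 2.94 and 2.75 CPM (log2 1.70, SE 0.28, adjusted p = 0.00659). Bcl2, an inhibitor of cell death, was higher in 6 of 6 libraries (log2 0.68, SE 0.09), as was Snai1 (log2 0.42, SE 0.10, adjusted p = 0.0389), whose call was lost without any of 4 libraries and with 3 pairs. Osr1, Ccnd1, Ccnd2 and Foxf1 did not pass (log2 0.12, 0.68, -0.04 and -0.36).

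**Figure D2:**
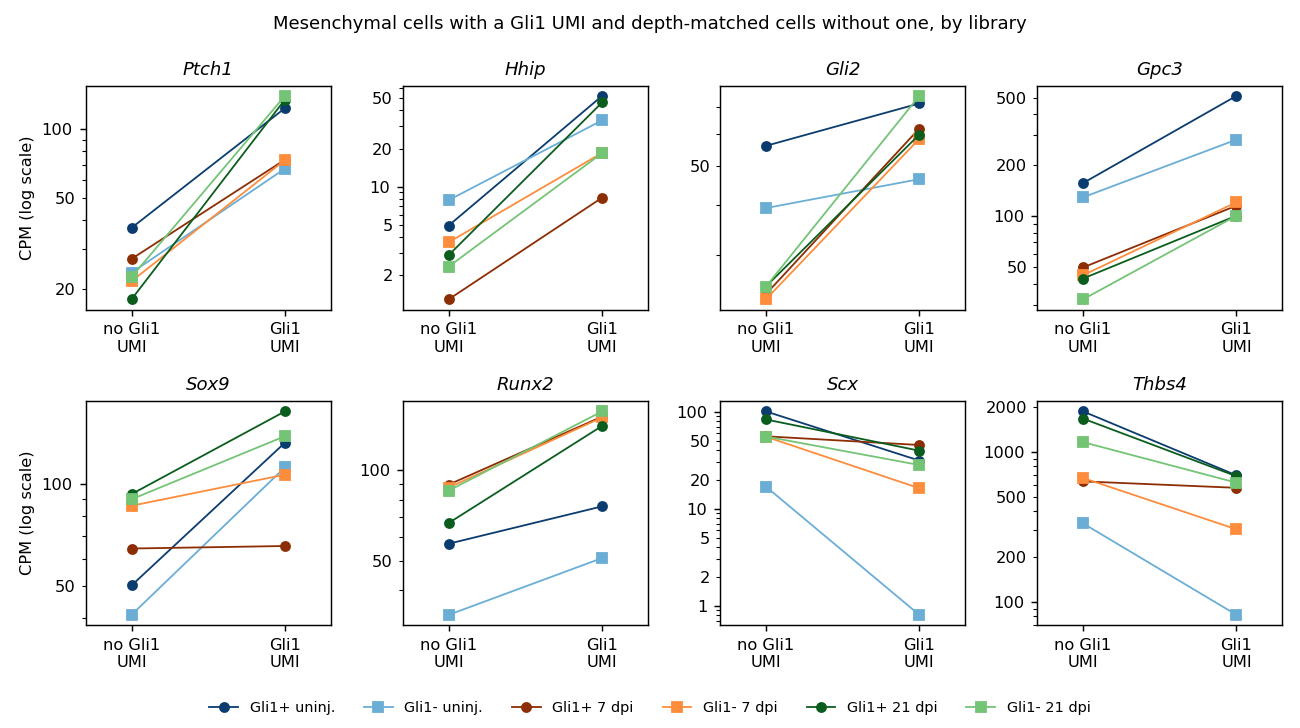
CPM (y axis, log scale) in mesenchymal cells without (left) and with (right) a Gli1 UMI for the genes named in each panel, with a line for each of the 6 libraries. The lines of Ptch1 and Hhip rise in all 6 libraries, with Ptch1 going from 17.95 to 37.0 CPM on the left to 67.3 to 140 CPM on the right, and those of Scx fall in all 6.

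Ptch1 was graded with the number of Gli1 UMIs in 5 of 6 libraries. From matched cells over cells with 1 Gli1 UMI to cells with 2 or more, Ptch1 read 37.0, 112 and 160 CPM in the Gli1+ uninjured library. At 7 dpi, Ptch1 read 27.0, 59.3 and 173 CPM in the Gli1+ library and 21.6, 62.55 and 149.8 CPM in its Gli1- counterpart. At 21 dpi, the levels were 17.95, 118.5 and 226.6 CPM, and 22.5, 115 and 263.5 CPM. Cells with 2 or more Gli1 UMIs thus held the most Ptch1 there, although only 8 of them were counted at 7 dpi in the Gli1+ library. The Gli1- uninjured library did not follow, with 23.5, 71.8 and 40.9 CPM, the last from 15 UMIs in 40 cells (95% exact interval for counting error 22.9 to 67.4). Hhip showed the same steps in 3 of 6 libraries, with 3.63, 15.01 and 43.2 CPM in the Gli1- library at 7 dpi and 2.88, 30.3 and 135 CPM in the Gli1+ library at 21 dpi, and from 2.34 up to 35.0 CPM in its Gli1- counterpart, but not in the others, among them the Gli1+ uninjured library with 4.93, 57.4 and 36.2 CPM. These levels are a description, since the number of Gli1 UMIs chose the cells.

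Tendon genes were lower in the Gli1-expressing mesenchymal cells. Of 6 tenocyte genes, 4 fell and none rose, against 1.54% and 2.26% of all genes tested. The median log2 fold change over the list was -0.92 against -0.01 over all genes tested. Scx read 31.4, 0.806, 45.4, 16.3, 39.7 and 28.3 CPM against 100.9, 16.9, 55.9, 55.3, 83.3 and 55.5 CPM, lower in each library (log2 -1.33, SE 0.21, adjusted p = 0.00533). Thbs4, a matrix protein of tendon, was lower in each library as well (log2 -1.17, SE 0.17, adjusted p = 0.00296), while Tnmd (log2 -0.78, SE 0.16, adjusted p = 0.0227) and Kera (log2 -1.07, SE 0.20, adjusted p = 0.0122) were lower in 5 of 6 libraries, with the Gli1+ 7 dpi library the exception for both. Without the Gli1+ 21 dpi library, the adjusted p of Tnmd was 0.0996 and that of Kera 0.0753, and both calls were lost with 3 pairs (adjusted p = 0.0907 and 0.0597). Of 6 tendon stem cell genes only Dpp4 fell (log2 -0.89, SE 0.18, adjusted p = 0.0164), a call lost without any of 3 libraries and with 3 pairs, and Tppp3, Ly6a and Pi16 did not pass (log2 0.09, -0.20 and -0.37).

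Of 5 synovial lining genes tested, Prg4 and Clic5 were also lower, against 1.54% of all genes tested. Prg4, which encodes lubricin, read 644, 524, 184, 216, 273 and 190 CPM against 1641, 783, 338, 640, 357 and 577 CPM and was lower in each library (log2 -1.10, SE 0.16, adjusted p = 0.00253). Clic5 fell by 2.32 (SE 0.27, adjusted p = 0.000876). Of 15 tendon sheath and matrix genes, Lox, which crosslinks collagen, fell by 0.54 (SE 0.07, adjusted p = 0.00135), as did Prg4, Tnfaip6 and Postn, and Has2, a hyaluronan synthase, rose (log2 0.45, SE 0.11, adjusted p = 0.0439). Under 22 other settings, the calls of Has2 and Postn were kept in 11 and that of Tnfaip6 in 10, against 21 for Prg4 and Lox. The calls of Has2, Postn and Tnfaip6 were among those lost with 3 pairs. Col1a1, Col3a1 and Dcn did not pass (log2 -0.24, -0.13 and -0.03).

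Of 7 SOX and osteochondral transcription factors tested, Sox9, Sox8, Runx2 and Runx3 rose and Runx1 fell, against 2.26% and 1.54% of all genes tested. Runx2, which directs osteoblast and late chondrocyte differentiation, read 75.9, 51.2, 151, 150, 140 and 157 CPM against 57.1, 33.2, 89.7, 87.7, 66.9 and 85.6 CPM, higher in each library (log2 0.73, SE 0.08, adjusted p = 0.000571). Sox9 read 132, 112, 65.4, 106, 163 and 138 CPM against 50.0, 41.0, 64.3, 86.0, 93.0 and 89.8 CPM (log2 0.76, SE 0.16, adjusted p = 0.0218). The call of Sox9 was lost without the Gli1+ 21 dpi library (adjusted p = 0.0792) and with 3 pairs (0.183), as were those of Sox8 (0.0924) and Runx1 (0.168) with 3 pairs. Alpl, the bone alkaline phosphatase, rose in each library (log2 1.36, SE 0.18, adjusted p = 0.00153), while Spp1, Ibsp and Bglap did not pass (log2 -0.02, -0.44 and 0.23).

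Of 5 chondrocyte genes tested, Col2a1, Col9a1 and Matn3 were higher (log2 2.31, 2.57 and 2.55), against 2.26% of all genes tested, and through few cells. With 3 pairs, Col9a1 kept its call and Col2a1 and Matn3 lost theirs (adjusted p = 0.229 and 0.132). Col2a1, the main collagen of cartilage, read 5.09, 0.403, 90.0, 420.5, 3489 and 7450 CPM against 16.6, 2.02, 14.0, 53.8, 525.6 and 1029 CPM, so that it was lower in both uninjured libraries and higher in the 4 others. At 21 dpi, 29 of 314 (9.24%) Gli1+ and 62 of 346 (17.9%) Gli1- mesenchymal Gli1-expressing cells held 10 or more Col2a1 UMIs, against 1.53% and 2.89% of matched cells, and these cells held 99.6% and 99.5% of the Col2a1 UMIs. In uninjured tendon, 0 of 245 and 0 of 307 did so, which allows shares of up to 1.22% and 0.977%. Leaving such cells out of both groups turned Col9a1 to log2 -0.19 and Matn3 to -0.22 and brought Col2a1 to 0.04. Col9a2, a cartilage collagen outside that list, was higher in each library, at 44.55, 20.1, 8.18, 50.8, 485 and 671 CPM against 9.35, 3.31, 4.78, 11.15, 54.9 and 100.3 CPM, and kept a log2 fold change of 1.55 without those cells (adjusted p = 0.00492). Sox9 then had a log2 fold change of 0.57 (adjusted p = 0.134), and Runx2 stayed at 0.66 (adjusted p = 0.000227).

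Of 5 perineurial genes tested, which mark the sheath of nerve bundles, 4 rose, against 2.26% of all genes tested. Cldn1, a tight junction protein, read 31.4, 34.2, 10.9, 14.1, 20.3 and 21.0 CPM against 6.20, 3.15, 6.98, 1.25, 2.25 and 1.45 CPM and was higher in each library (log2 2.88, SE 0.31, adjusted p = 0.00047). Itgb4 (log2 1.41, higher in 6 of 6 libraries), Mpzl2 (1.60, 6 of 6) and Moxd1 (1.05, 5 of 6) passed at mean levels of 9.76, 6.13 and 28.2 CPM, and the glucose transporter Slc2a1 did not (0.26). With 3 pairs, Cldn1 and Itgb4 kept an adjusted p below 0.05 and Mpzl2 and Moxd1 did not (0.0759 and 0.127), and Moxd1 kept its call under 11 of 22 other settings. Of 6 endoneurial genes, Abca9 rose (log2 0.44, SE 0.08, adjusted p = 0.0148), and the log2 fold change was 0.03 without cells with a Sox9 UMI (adjusted p = 1.0) and the call was lost with 3 pairs (0.0912). Cdh19 and S100b of the Schwann list rose too (log2 1.45 and 1.26), with an adjusted p of 0.0699 for S100b with 3 pairs, while Sox10 and Kcna1 were too low to be tested. The summed Schwann list read 17.3 to 118 CPM in Gli1-expressing and 9.92 to 77.9 CPM in matched cells, and the part of Schwann cell RNA in these differences was not tested.

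Signalling genes changed in both directions. Of 17 genes of the bone morphogenetic protein (BMP) pathway, 5 rose and 2 fell, against 2.26% and 1.54% of all genes tested. The rises were the BMP target genes Id1 (log2 0.94, SE 0.13), Id2 (0.34) and Id3 (0.35), each in 6 of 6 libraries, the ligand Bmp7 (1.52) and the antagonist Nog (1.05). The ligand Bmp2 fell by 0.55 and the antagonist Grem1 by 1.99, the latter at 0, 2.42, 5.45, 0.313, 11.9 and 28.0 CPM against 0.850, 1.29, 13.1, 4.32, 71.7 and 92.0 CPM. Of these, only Bmp7 and Grem1 kept an adjusted p below 0.05 with 3 pairs. Of 18 Wnt genes, Lef1, the nuclear partner of beta-catenin, was higher in 5 of 6 libraries (log2 2.39, SE 0.20, adjusted p = 0.000113) and Notum, a secreted Wnt inhibitor, also rose (1.31, SE 0.25; adjusted p = 0.0995 with 3 pairs), whereas Axin2, a general target of the pathway, did not pass (0.43). Lef1 was at 53.9 CPM in the Gli1+ and at 0 CPM in the Gli1- uninjured library. None of 6 Notch genes tested passed, against 3.80% of all genes tested, and 6 genes are too few to tell these apart.

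The remaining lists had few calls. Of 6 cell cycle genes, Top2a and Birc5 rose (log2 0.71 and 0.57), against 2.26% of all genes tested, and Mki67 did not pass (0.37). The mural potassium channel genes Abcc9 and Kcnj8 rose (log2 0.73 and 1.09), while Rgs5 read -0.05 (SE 0.23), and both calls were lost without likely doublets (adjusted p = 0.613 and 0.192). The fibrocartilage receptor gene Fgfr3 rose by 1.55 and dropped to 0.48 without the cells rich in Col2a1. Sostdc1 of the dermal papilla list rose by 2.41, at a mean of 6.67 against 1.36 CPM. Of these calls, those of Top2a, Kcnj8, Fgfr3 and Sostdc1 were lost with 3 pairs (adjusted p = 0.0516, 0.0587, 0.0783 and 0.129). Pdgfra, a defining mesenchymal marker, read 410, 492, 222, 222, 183 and 177 CPM against 338, 470, 194, 226, 195 and 205 CPM (log2 0.00, SE 0.07), higher in 3 libraries and lower in 3.

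**Figure D3:**
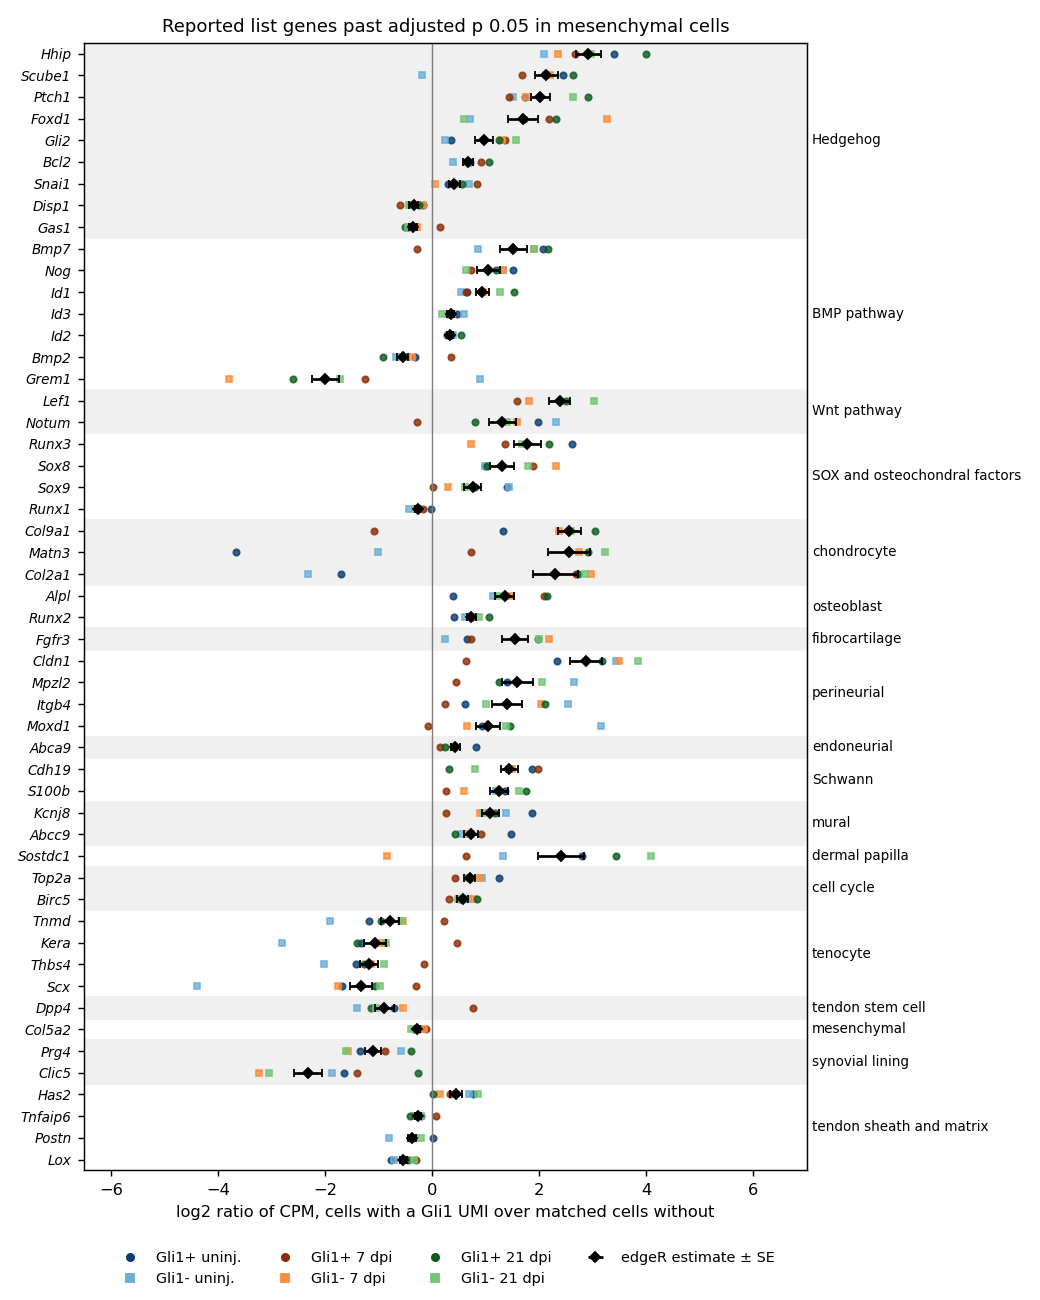
Log2 ratio of CPM (x axis) in mesenchymal Gli1-expressing over matched cells for reported genes of the fixed lists past an adjusted p of 0.05, grouped by list, with coloured points for libraries and black diamonds for the edgeR estimate with its SE. Points are missing where a library had no UMI in either group. Hhip, at 2.92, and Cldn1, at 2.88, lie farthest right, while Scx, Clic5 and Grem1 lie left of 0.

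Genes outside the lists were named by their p-value and sign in all libraries. All 15 were higher in 6 of 6 libraries. Gpc3, a cell surface proteoglycan that binds Hedgehog ligand, had the smallest p, at 513, 283, 115, 121, 100.7 and 100.6 CPM against 157, 129, 49.8, 44.8, 42.8 and 32.3 CPM (log2 1.37, SE 0.08, adjusted p = 1.65e-05). Nr2f2, an orphan nuclear receptor, was about as regular (log2 1.15, SE 0.09), and Tenm2, an adhesion protein of neurons, had the largest rise of the 15 highest ranked (log2 2.98, SE 0.25). Of the same rank were Col9a2 (2.57), Gna14 (1.53), Foxd2os (1.99), Gse1 (0.68), Or5m3b (1.69), Rasgrp2 (1.80), Smim41 (1.74), Inpp4b (1.41) and Ngfr (1.93), with Hhip and Ptch1. Foxd2os is annotated as antisense to Foxd2, and whether counting used the strand is not given in the sources used here, so its reads may belong to either.

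The 10 genes that ranked highest among those lower were led by Cxcl3, a neutrophil chemokine (log2 -3.44, SE 0.26, adjusted p = 9.88e-05). It read 0, 0, 4.54, 2.19, 1.56 and 4.15 CPM against 0.170, 1.37, 31.1, 11.3, 45.1 and 37.6 CPM, so the difference lay in the 4 injured libraries. Gja1, the gap junction protein connexin 43, fell by a like amount everywhere, at 140 to 174 CPM against 223 to 256 CPM (log2 -0.62, SE 0.05, adjusted p = 0.000113). The rest were Sema3e (-1.16), Klk1 (-1.90), Cd55 (-0.69), Maf (-0.60), Slpi (-0.85), Ptx4 (-2.002), Anxa8 (-0.65) and the complement gene C3 (-0.52).

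Over all lineages together, 143 of 13926 genes (1.03%) were higher and 147 (1.06%) lower in Gli1-expressing than in matched cells (290, or 2.08%, in either direction). Of these, 116 (0.833%) were higher and 131 (0.941%) lower in each library, which without a test held for 6.28% and 3.58% of genes. The counts were 267 and 284 without the Gli1+ uninjured library, 60 and 93 without the Gli1+ and 53 and 55 without the Gli1- 21 dpi library. The lower count was 89 without the Gli1- uninjured and the higher one 93 without the Gli1- 7 dpi library. After Or5m3b (log2 1.43), Hhip (2.90) and Ptch1 (1.99) were among the genes with the smallest p of those higher in every library. Lower genes followed the lineages: 5 of 6 endothelial genes fell, with Pecam1 at 33.25, 95.1, 3.99, 14.2, 16.4 and 47.9 CPM against 120.3, 196, 9.70, 41.5, 28.1 and 132 CPM (log2 -1.38, SE 0.14, adjusted p = 0.00376). The leukocyte genes Il2rg (log2 -1.60) and Cd74 (-3.56) fell as well.

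Higher genes over all lineages included hair follicle genes. Of 6 in that list, Lhx2, a transcription factor of hair follicle stem cells, rose (log2 2.39, SE 0.40, adjusted p = 0.0191), as did Lgr6 (1.25, SE 0.25, adjusted p = 0.0380). Of all genes tested, 1.03% rose. Lhx2 read 71.0, 0, 39.4, 1.81, 37.2 and 6.72 CPM against 10.3, 1.09, 4.18, 1.27, 4.37 and 1.52 CPM, so that its level came mainly from the Gli1+ sort. Fras1, a basement membrane protein (log2 1.92), Hoxc13, a regulator of hair keratins (1.98), Bmp7 (1.75), Scrg1 (2.44), Lamc3 (1.51) and Edn3 (2.18) were among the 15 named. Krt14, a gene of the epidermal list, was lower over all lineages (log2 -1.46, SE 0.29, adjusted p = 0.0368), a call lost without any of 5 libraries. Within mesenchymal cells, which that list helped to define, Krt14 did not pass (0.07, SE 0.12). Or5m3b, Bhlhe41 (0.73), Gria4 (0.92), Gna14, Foxd2os and Col9a2 were also among the higher 15, and Limch1, Mecom, Egfl7, Mgll, Cd93, Cxcl3 and Aqp1 among the lower 10.

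The difference between Gli1-expressing and matched mesenchymal cells was itself compared between sorts and between injured and uninjured libraries. Between the Gli1+ and Gli1- sorts, the edgeR interaction test called none of 12411 genes in either direction, with 175 and 185 at an unadjusted p below 0.05. Between the 4 injured and the 2 uninjured libraries, 45 genes (0.363%) had a higher and 49 (0.395%) a lower log2 fold change after injury (94, or 0.757%, in all). Without the Gli1+ uninjured library these were 12 and 16, without the Gli1+ 21 dpi library 17 and 19, and without the Gli1- 21 dpi library 28 and 21. The libraries come from 1 group of mice per time point, so that injury and the mice cannot be told apart.

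Gli2 differed with injury, and the main target genes did not pass. The ratio of mean CPM was log2 1.38 for Gli2 in injured and 0.30 in uninjured libraries (difference 1.08, SE 0.14, adjusted p = 0.00717). For Ptch1 the difference was 0.65 (SE 0.32, adjusted p = 0.512) and for Hhip 0.38 (SE 0.44). Sox9 went the other way, at log2 0.50 in injured against 1.42 in uninjured libraries (difference -0.92, SE 0.18, adjusted p = 0.0449). The call for Sox9 was kept under 5 of 11 other settings, and that for Gli2 under 10.

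Of the 45 genes with a higher fold change after injury, 6 were among the 15 genes tested of the chondrocyte, osteoblast and fibrocartilage lists, against 0.363% of all genes tested. Col2a1 (difference 4.60, SE 0.245), Col11a2 (4.55, SE 0.26) and Matn3 (5.78, SE 0.81) were lower in Gli1-expressing cells of uninjured tendon and higher in those of injured tendon. Without the cells rich in Col2a1, the Col2a1 difference was 0.83 (adjusted p = 0.495), while Col11a2 kept its call under all 11 other settings. Wif1, a secreted Wnt inhibitor, read 73.4 and 0 CPM against 90.6 and 12.2 CPM in uninjured tendon and 21.8, 10.3, 151 and 90.5 CPM against 6.43, 2.19, 29.2 and 15.4 CPM after injury (difference 3.08, SE 0.42, adjusted p = 0.00794). The size of that difference depended on the group at 0 CPM: it was 2.71 without the Gli1- and 11.96 without the Gli1+ uninjured library, the latter no measure of size. Wif1 was below the matched cells in both uninjured libraries and above them in all 4 injured ones. Sfrp1, another Wnt inhibitor, turned the opposite way (difference -1.10, SE 0.15, adjusted p = 0.00829), from 133 and 116 CPM against 75.4 and 77.5 CPM in uninjured tendon to 377, 647, 356 and 296 CPM against 606, 784, 410 and 405 CPM.

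**Figure D4:**
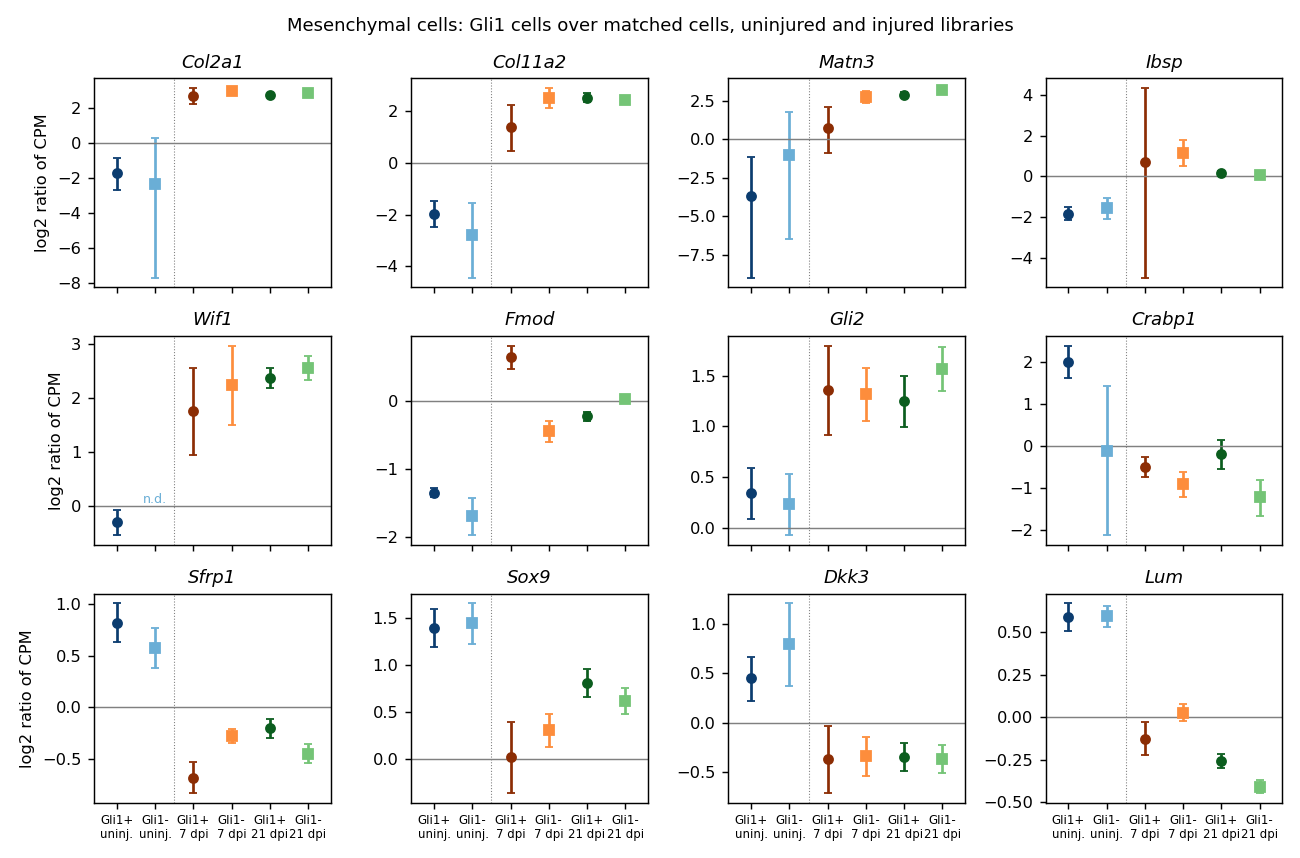
Log2 ratio of CPM (y axis) in Gli1-expressing over matched mesenchymal cells in each of the 6 libraries (x axis, 2 uninjured on the left of the dotted line and 4 injured on its right), a gene per panel, with n.d. where a group had no UMI. The points of Gli2 lie higher in the injured libraries (log2 1.38 against 0.30 from mean CPM) and those of Sox9 lower (0.50 against 1.42).

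The Gli1-expressing cells with a Sox9 UMI numbered 135, 127, 76, 127, 145 and 150. In the Gli1+ uninjured library, 98 of the 135 were mesenchymal, 14 epidermal, 9 immune and 2 skeletal muscle, and 12 had no lineage. There, 2 or more Gli1 UMIs were held by 37.0% of them against 23.1% of the Gli1-expressing cells without Sox9, at median depths of 9376 and 9723 UMIs. In the other libraries these shares were 11.8% to 18.0% and 9.09% to 15.3%, at medians of 7580 to 13410 and 6534 to 8531 UMIs. The Gli1+ 21 dpi library had the reverse order, with 14.5% and 15.3%. The Gli1 level was 116.3 against 100.5 CPM in the Gli1+ uninjured library. It was lower with Sox9 in each of the 5 others, at 72.5 to 137.4 against 112 to 158.5 CPM. All these cells were chosen for a Gli1 UMI and most held fewer than 2, so this level falls as depth rises. By median depth, cells with Sox9 were deeper in those 5 libraries and shallower in the Gli1+ uninjured library. The order of these levels therefore cannot show a difference in Gli1 expression. Both Sox9 and Gli1 UMIs chose these cells, so all that follows on them is a description with no test.

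Read the other way, Gli1 was found far more often in Sox9-positive mesenchymal cells of uninjured tendon. In the Gli1+ uninjured library, 19.96% of 491 mesenchymal cells with a Sox9 UMI held a Gli1 UMI (95% exact interval for counting error 16.5% to 23.8%), against 7.725% of 1903 without. In the Gli1- uninjured library the shares were 13.45% of 870 and 3.89% of 4888. After injury they were close, from 2.10% against 2.26% to 5.04% against 3.80%. Thinned to 2000 UMIs, the shares in uninjured tendon were 7.46% against 2.83% in the Gli1+ and 15 of 375 cells against 1.505% in the Gli1- library.

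Within mesenchymal Gli1-expressing cells of the Gli1+ uninjured library, Sox9-positive cells carried more Ptch1 but less Hhip. Ptch1 read 161 CPM in the 98 Sox9-positive cells and was lower in the 147 Sox9-negative cells, by a log2 ratio of 0.67 (95% exact interval for counting error 0.33 to 1.014). Hhip read 8.88 and 79.0 CPM. In the Gli1- uninjured library, Ptch1 read 78.6 and 59.5 CPM and Hhip 33.8 and 33.15 CPM in the 117 cells with and the 190 cells without Sox9, so the gap in Hhip was not seen there. In the Gli1+ library, Gpc3 read 951 and 242 CPM, Foxd1 75.5 and 20.6 CPM, Bmp7 123 and 48.1 CPM and Pdgfra 552 and 323 CPM. Gli2 (73.3 and 70.0 CPM) and Gli3 (79.9 and 85.2 CPM) differed by less than their counting intervals. Cldn1 was higher with Sox9 in the Gli1+ library (47.7 and 21.3 CPM) and lower in the Gli1- library (21.9 and 42.6 CPM).

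Among genes with at least 20 UMIs in, and found in at least 25% of, the Sox9-positive cells of the Gli1+ uninjured library, the 15 largest ratios of Sox9-positive over Sox9-negative mesenchymal Gli1-expressing cells, in order, were those of Ngfr, Trpm6, Rasgrp2, Inpp4b, Aspa, Rcsd1, Trf, Unc13c, G0s2, Nrxn2, B130024G19Rik, St3gal6, Col15a1, 2610035D17Rik and Vwa1. Ngfr, a neurotrophin receptor of peripheral nerve and stromal cells, read 37.7 and 2.06 CPM, Inpp4b 210 and 19.2 CPM, and Rasgrp2 193 and 16.5 CPM. Col15a1, a basement membrane collagen, read 989 and 187.5 CPM. The Gli1- uninjured library, which did not choose these genes, showed the same direction for all of them except B130024G19Rik (7.96 and 9.47 CPM), among them Ngfr (53.75 and 12.9 CPM), Rasgrp2 (257 and 61.6), Inpp4b (148 and 43.3), Trf (999 and 211) and Col15a1 (686 and 245). At 21 dpi, Col15a1 was lower in the Sox9-positive cells of both libraries, at 92.9 and 109 CPM in the Gli1+ and 78.1 and 145 CPM in the Gli1- library.

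Endoneurial genes were split in these cells of the Gli1+ uninjured library, and tendon genes were lower with Sox9 there. The 6 endoneurial genes summed to 928 CPM in Sox9-positive and 433 CPM in Sox9-negative cells, with 4 of them higher, among them Abca9 (340 and 84.5 CPM), Osr2 (283 and 94.8 CPM) and Etv1 (169 and 47.4 CPM). Trpm3 (38.85 and 98.2 CPM) and Wif1 (54.4 and 85.2 CPM) were lower with Sox9, whereas in the Gli1- library Trpm3 was higher (70.7 and 22.3 CPM). The 6 tenocyte genes summed to 1007 and 2138 CPM and 0 were higher, with Scx at 13.3 and 42.6 CPM and Tnmd at 53.3 and 194 CPM. In the Gli1- uninjured library the sums were close, at 135 and 146 CPM. At 7 dpi they were 454 and 1825 CPM in the Gli1+ and 551 and 493 CPM in the Gli1- library. At 21 dpi the sum was higher with Sox9 in both libraries, at 1800 and 1523 CPM (Gli1+) and 1807 and 1304 CPM (Gli1-). Of the dermal genes in the Gli1+ uninjured library, the dermal papilla list summed to 44.4 and 243 CPM, and Crabp1 read 5.55 and 65.9 CPM. The Schwann list summed to 139.9 and 60.4 CPM (196 and 64.96 CPM in the Gli1- library), with Cdh19 at 96.6 and 30.2 CPM and S100b at 41.1 and 26.8 CPM, and Sox10, a defining transcription factor of Schwann cells, was at 0 in both groups. Col2a1 read 12.2 and 0.687 CPM, from 11 and 1 UMIs, and no cell held 10 UMIs of it. Runx2 read 76.6 and 75.55 CPM.

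**Figure D5:**
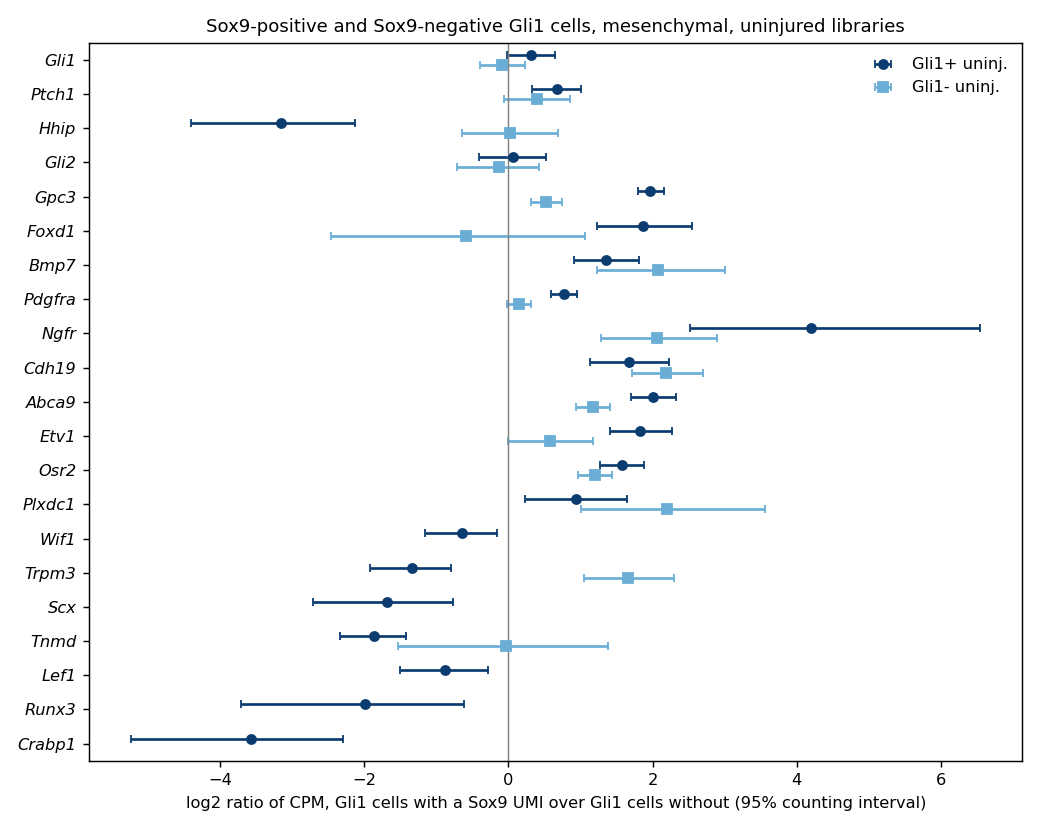
Log2 ratio of CPM (x axis) in mesenchymal Gli1-expressing cells with a Sox9 UMI over those without, in the Gli1+ (dark circles) and Gli1- (light squares) uninjured libraries, with 95% intervals for counting error. In the Gli1+ library Ngfr (37.7 against 2.06 CPM) lies farthest right, while Crabp1 (5.55 against 65.9 CPM) and Hhip (8.88 against 79.0 CPM) lie farthest left, and no point is drawn where a group had no UMI.

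Among Sox9-positive mesenchymal cells alone, Gli1-expressing cells also held more of the Hedgehog targets. With 3 Sox9-positive cells without a Gli1 UMI matched on depth to each, Ptch1 read 161, 78.6, 82.3, 62.7, 146 and 211 CPM against 93.3, 42.6, 24.2, 23.9, 24.3 and 27.6 CPM. As a log2 ratio, the gap was smallest in the uninjured libraries (0.79 and 0.88), where Ptch1 of the cells without Gli1 was at its highest. Hhip, Cldn1, Gpc3 and Runx2 were also higher in 6 of 6 libraries, with Gpc3 at 951 against 409 CPM in the Gli1+ uninjured library. Scx was lower in 6 of 6, at 13.3 against 54.2 CPM there.

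Epidermal Gli1-expressing cells were found in 4 libraries in numbers of 14 or more, at 29, 47 and 48 in the Gli1+ libraries and 14 in the Gli1- library at 21 dpi. They were set beside matched epidermal cells, or beside all 145 others in the Gli1+ uninjured library, where the median depths of 27970 and 21520 UMIs were not equal. The medians were not equal in the Gli1- library at 21 dpi either, at 11450 and 9299 UMIs for 14 and 70 cells. Ptch1 read 154, 135, 138.5 and 280 CPM against 79.0, 26.2, 21.1 and 72.4 CPM, and Gli2 129, 60.7, 119 and 180 CPM against 36.45, 18.4, 36.3 and 57.6 CPM. Both were higher in all 4 libraries. Hhip had at most 5 UMIs in the Gli1-expressing cells of any library.

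Of the 6 hair follicle genes, 4 were higher in the epidermal Gli1-expressing cells of all 4 libraries (Lhx2, Lgr5, Lgr6 and Tbx1). Krt79 was lower in 3 libraries, at 2.37, 26.4 and 6.21 CPM against 514, 214 and 192 CPM, and higher in the Gli1+ library at 7 dpi (211 and 32.8 CPM). Krt17 was higher in the Gli1+ uninjured and 7 dpi libraries and lower in both at 21 dpi (1028 and 1087 CPM against 1249 and 1576 CPM). Lhx2 read 247, 152, 244 and 180 CPM against 66.2, 5.47, 37.6 and 82.8 CPM. Lgr5, a stem cell marker of the lower follicle, read 374, 186, 708 and 199 CPM against 218, 35.55, 129 and 115 CPM, and Lef1 231, 22.8, 84.1 and 410 CPM against 72.6, 5.86, 14.5 and 149 CPM. Krt14 and Krt5, the keratins of the basal layer, were lower in all 4, with Krt14 at 888, 4653, 4062 and 354 CPM against 4749, 10070, 10610 and 5471 CPM. Mki67, a proliferation marker, was higher in all 4, at 505.5, 165, 181 and 398 CPM against 234, 68.0, 76.25 and 176 CPM. Sox9 read 196.5, 93.0, 262 and 87.0 CPM against 179, 67.2, 166 and 154 CPM, higher in 3 libraries and lower in the last. These are 1 library per condition, and no test was made.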

How the data were processed

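Single-cell RNA-seq libraries were made by the authors with Chromium 3' v3 chemistry from sorted cells. The authors deposited raw UMI counts per barcode over 33696 genes, and filters were applied anew here. Per the labels, Cell Ranger 3.1.0, STAR and mm10 were used, whereas the deposited file headers name Cell Ranger 9.0.0, so no coordinates are given. The members and all gene lists were chosen with earlier results of these data known.

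Counts were summed per library over Gli1-expressing cells and over 5 matched cells each, and CPM is UMIs per 1000000 of that sum. edgeR 4.0.16 (R 4.3.3; TMM, filterByExpr, quasi-likelihood F test, library as block, 12 sums, 5 residual degrees of freedom) gave log2 fold changes and Benjamini-Hochberg adjusted p-values, within all and within mesenchymal cells, and interaction terms with sort and injury. Library is a block because both sums of a library come from the same cells' pool, not from numbered replicates. p-values measure the spread between libraries, and both sorts of a time point share mice. In simulated data, changes of 1 on the log2 scale were recovered for 186 of 195 changed genes over all cells (95.4%). Among mesenchymal cells they were recovered for 188 of 194 (96.9%). There were 9 and 4 false calls. The simulated spread was a single fixed value, not taken from these data, so these shares do not give the recovery in the real comparisons. Shares used sign-flip exact permutation tests over 6 libraries (two-sided, smallest p = 0.03125). Intervals are 95% exact ones, and the limit of a count of 0 is 3 counts, both for counting error only. No doublet caller was run. Cells with at least 2 markers of each of 2 or more lineages, or in the top 5% of their library by UMIs, were marked as likely doublets and left out as an alternative, beside other filters, matchings and tools. Leaving them out kept 1 mesenchymal Gli1-expressing cell of the Gli1+ 7 dpi library. Named genes were those with an adjusted p below 0.05 and the same sign in all libraries, the 15 higher and 10 lower with the smallest p, the genes of the rule, all Hedgehog genes, list genes that passed, and the 15 largest Sox9-positive ratios among genes with at least 20 UMIs in, and detected in at least 25% of, the Sox9-positive cells. The rule took those ratios over all Gli1-expressing cells of the Gli1+ uninjured library, and their restriction to mesenchymal cells was chosen after the data were seen. Some members of these sets are not reported here.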

Additional observations from a re-analysis of the deposited data

Results flagged for a closer look

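Among 167 genes of the fixed lists tested, 17 had a difference between groups, against 94 of all 12411 genes tested (0.757%): the log2 fold change of mesenchymal Gli1-expressing over matched cells was not the same in the 4 injured and the 2 uninjured libraries (edgeR interaction test, Benjamini-Hochberg adjusted p below 0.05 over 12411 genes). Differences are given as injured minus uninjured on the log2 scale.

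Of cartilage and bone genes, Matn3 differed by 5.78, Col2a1 by 4.6, Col11a2 by 4.55, Chad by 1.81, Ibsp, a bone matrix protein, by 1.96 and Bglap, which encodes osteocalcin, by 6.83. Of tendon genes, Fmod differed by 1.47 and Mkx by 1.42, and Crispld1 of the synovial lining list differed by 1.47. Of Wnt inhibitors, Wif1 differed by 3.08, Sfrp1 by -1.1 and Dkk3 by -0.921. Crabp1, a retinoic acid binding protein of dermal cells, differed by -2.41, Lum by -0.792, Osr2 by -0.813, Gli2 by 1.08 and Sox9 by -0.925. Col11a2 and Wif1 kept their calls under 11 of 11 other settings, Crabp1, Dkk3, Gli2 and Sfrp1 under 10, Fmod, Ibsp, Lum and Matn3 under 8, Col2a1 under 7, Bglap and Sox9 under 5, Mkx and Osr2 under 3, Chad under 2 and Crispld1 under 1.

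Crabp1 read 42.9 and 1.61 CPM against 10.8 and 1.77 CPM in the uninjured libraries, so its difference rested on the Gli1+ library, and without it was -0.56 (adjusted p = 0.901). Dkk3 read 91.2 and 27.0 CPM against 66.8 and 15.5 CPM in uninjured tendon, and 77.2, 77.1, 149 and 124 CPM against 99.4, 97.2, 189 and 159 CPM after injury, higher in both former and lower in all 4 latter libraries. Bglap was at 0.403 CPM against 84.2 CPM in the Gli1- uninjured library and at 112.5 CPM against 1.13 CPM in the Gli1- 7 dpi library. The size of its difference depended on that near-empty group, at 5.21 without the Gli1- 7 dpi and 10.8 without the Gli1+ uninjured library (adjusted p = 0.108), and is no measured size.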

How the results depend on the processing

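With each library left out in turn, the count of genes higher over all lineages ranged from 53 to 267 and of those lower from 55 to 284, in mesenchymal cells from 160 to 277 and 84 to 199, and for the injury difference from 12 to 38 and 16 to 51. Over all lineages, against 143 higher and 147 lower, there were 228 and 615 with no filter on low counts, 276 and 248 with DESeq2, 40 and 47 with sorts added up to 3 time points, 77 and 86 with at least 2 Gli1 UMIs, 36 and 35 without likely doublets, and 290 lower without depth matching. In mesenchymal cells, against 280 and 191, there were 482 and 695 with no filter, 77 and 34 with 3 time points, 55 and 72 with at least 2 Gli1 UMIs, 147 and 121 with mesenchymal cells defined by Pdgfra and 4 absent genes, 159 and 120 without cells with a Sox9 UMI, and 106 lower with 1 matched cell. For the injury difference, against 45 and 49, there were 23 and 21 with 1 matched cell, and 23 higher with matching on marker number. The replicate block is the library: without it, 4 genes were higher and 0 lower over all lineages and 3 and 0 in mesenchymal cells. The sorts of a time point share mice, and the fit with 3 time points takes each such pair together.

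The difference in lineage share turned for epidermal cells without likely doublets (-4.26 percentage points) and for skeletal muscle with at least 2 Gli1 UMIs (-0.114). Leaving out each library, it ranged from 6.86 to 14.7 for mesenchymal, 0.725 to 2.40 for epidermal, -1.74 to -0.471 for mural, -6.30 to -4.04 for endothelial, -9.13 to -0.0848 for immune, -0.0647 to 0.315 for Schwann and 0.0959 to 0.272 for skeletal muscle cells, and for shares with a UMI from 8.57 to 13.8 for Sox9, 3.80 to 12.3 for Pdgfra, 1.35 to 2.28 for Krt14, -4.15 to -2.23 for Rgs5 and -7.96 to -5.75 for Scx.

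Log2 fold changes of 3 genes near 0 in mesenchymal cells changed sign. Pdgfra was at -0.06267 with no filter, -0.02772 with 3 time points, -0.03437 without matching, -0.00454 from 1000 UMIs, -0.07067 with at least 2 Gli1 UMIs, -0.05796 without likely doublets, -0.08142 by the Pdgfra definition, -0.006506 with matching on marker number, -0.02096 with at least 3 markers, and -0.05075 to -0.01403 without the Gli1+ or Gli1- uninjured or the Gli1+ 7 dpi library (-0.02697). Krt14 was at -0.139 without the block, -0.08824 with at least 2 Gli1 UMIs, -0.001802 without likely doublets, -0.0006234 with lineages from summed UMIs, -0.05354 without Sox9 cells and -0.1501 without the Gli1+ 21 dpi library. Rgs5 was at 0.1029 without the block, 0.2524 with 1 matched cell, 0.3303 with at least 2 Gli1 UMIs, 0.1366 with summed UMIs, 0.2993 without Sox9 cells, and 0.03104, 0.03404 and 0.0599 without the Gli1+ or Gli1- uninjured or the Gli1+ 21 dpi library. Over all lineages, Rgs5 was at 0.002366 without the Gli1- 21 dpi library. Over the libraries left out, Rgs5 ranged from -0.3909 to 0.002366 over all lineages, and in mesenchymal cells Rgs5 ranged from -0.2976 to 0.0599, Krt14 from -0.1501 to 0.1973 and Pdgfra from -0.05075 to 0.04791. Of genes that passed, Col2a1 turned by the Pdgfra definition (-0.2102), which left no cells of the Gli1+ 7 dpi library, and Col9a1 (-0.1902) and Matn3 (-0.2164) turned without cells with 10 or more Col2a1 UMIs. Over all named genes and settings, 1855 values kept their direction and side of the threshold, 389 lost the call, 3 gained it and 30 changed sign. The causes were not tested. Lineages from summed UMIs or 3 markers, the sets without Col2a1-rich or Sox9 cells and all settings of the injury difference were chosen after seeing the data. Most cells rest on 1 Gli1 UMI, and each condition is 1 library.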
